A study of Mus musculus with 12 samples.

Results

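The CD300 receptors are a family of immunoglobulin-domain proteins on the surface of myeloid cells, and 5 of their genes, Cd300a, Cd300lb, Cd300ld, Cd300lf and Cd300lg, are described here in mouse microglial preparations. The members were the lines of the deposited tables whose gene column equals one of these names, and all 5 were found among 23845 genes. The cells came from C57BL6/J mice of 3 to 4 months of age, were enriched by Percoll gradient, and gave 12 libraries of 1 animal each. The 4 groups hold 3 libraries each. CPEB1-KO-LPS is CPEB1 knockout with lipopolysaccharide (LPS), CPEB1-KO is the untreated knockout, WT-LPS is wild type with LPS and WT is untreated wild type. LPS is an endotoxin of the bacterial envelope that activates macrophages through Toll-like receptors, and treated mice received it by injection 24 h before cell isolation. CPEB1 is an RNA-binding protein that regulates poly(A) tails and translation. The sources used here do not give the knockout allele, the cells that lost the gene, the LPS dose or the sex of the mice.

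CD300 receptors work as a set of paired receptors, in which inhibitory and activating proteins with similar outer domains sit on the same cells. Cd300a and Cd300lf carry inhibitory tyrosine motifs in their tails, which recruit the phosphatases SHP-1 and SHP-2, the products of Ptpn6 and Ptpn11. Cd300lb and Cd300ld have short tails and signal through the adaptors DAP12 (Tyrobp) or the Fc receptor gamma chain (Fcer1g). Several members bind lipids that dying cells expose, among them phosphatidylserine, and take part in the uptake of such cells by macrophages. Cd300lg is best known from endothelium, where it binds L-selectin.

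Total expected counts per library ran between 5.02 and 13.5 M (1e+06 counts). All 10 microglia markers were detected in every group, and their summed level was 656 to 2757 TPM (transcripts per 1e+06 transcripts) in CPEB1-KO-LPS, 2682 to 4230 TPM in CPEB1-KO, 966 to 4457 TPM in WT-LPS and 5611 to 6377 TPM in WT. After LPS, 3 of the 10 fell in knockout and 6 in wild type, where 2.12% and 14.9% of all genes tested fell. Markers of neurons and neutrophils were also present, with summed levels of 1164 to 5343 TPM and 524 to 4050 TPM over the 12 libraries, and so were those of oligodendrocytes (2082 to 8124 TPM). Choroid plexus markers summed to 2517 to 3717 TPM in CPEB1-KO-LPS, 7163 to 9157 TPM in CPEB1-KO, 1119 to 2298 TPM in WT-LPS and 4434 to 7774 TPM in WT, and after LPS 5 of 6 fell in knockout and 6 of 6 in wild type. In CPEB1-KO-LPS, erythroid markers summed to 7051 and 11851 TPM in replicates 1 and 2, while replicate 3 stood apart at 61141 TPM. They summed to 27877 to 37849 TPM in CPEB1-KO, 6544 to 10887 TPM in WT-LPS and 41663 to 66991 TPM in WT, and 4 of 4 fell after LPS in wild type. The part of these transcripts in the results was not tested. The Cpeb1 transcript averaged 21.8 ± 4.42 TPM in CPEB1-KO and 26.2 ± 14.9 TPM in WT (SD, n = 3 each), and its log2 fold change did not pass the threshold (-0.58 ± 0.31, SE, adjusted p = 0.334). A deletion of part of the gene would not be visible in a value per gene, and the genotypes are those of the labels.

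Apart from Cd300lg, the members lie in a cluster of 244 kb on mouse chromosome 11. Cd300a (114890041 to 114904654, plus strand, GRCm38, which is mm10) opens it and Cd300lf (115116214 to 115133992, minus strand) closes it. Cd300lb (114922781 to 114934386) and Cd300ld (114982274 to 114989922), both on the minus strand, lie between them. Cd300lg (102041509 to 102055620, plus strand) stands 12.8 Mb away. The tables hold 5 further CD300 genes of the same cluster: Cd300c, Cd300e, Cd300lh, Gm11710 and AF251705. RefSeq names 12 CD300 genes, so the tables do not hold the whole family. RefSeq calls AF251705 Cd300c2 (also MAIR-II or CLM-4), an activating receptor that pairs with DAP12.

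Of the 5 members, 4 matched the RefSeq promoter table of build GRCm38.p6. The sequences of Cd300lf, Cd300lb and Cd300c2 are shown because these are the CD300 genes that passed the test after LPS, described further on. Each runs 5′ to 3′ on the strand of its gene, over 100 bases before and 20 bases from the annotated start, and capitals mark matches to a searched motif on either strand.
Cd300lf: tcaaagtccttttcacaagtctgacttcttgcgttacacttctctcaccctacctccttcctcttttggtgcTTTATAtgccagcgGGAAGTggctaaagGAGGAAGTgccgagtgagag
Cd300lb: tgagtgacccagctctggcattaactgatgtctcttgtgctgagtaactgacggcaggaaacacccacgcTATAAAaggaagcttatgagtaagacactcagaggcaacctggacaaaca
Cd300c2: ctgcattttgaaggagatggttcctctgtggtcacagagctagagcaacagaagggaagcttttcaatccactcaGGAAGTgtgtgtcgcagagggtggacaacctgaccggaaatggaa
They stand at chr11:115133973-115134092, chr11:114934352-114934471 and chr11:115001861-115001980, all on the minus strand. The motifs searched were GAGGAAGT, a form bound by the myeloid factor PU.1, and GGAAGT, which is the core of that form. The others were TTGCNNAA for C/EBP, TATAAA for the TATA box, and the sites known as NF-kB and interferon-stimulated response element. A search for TGANTCA, the AP-1 site, found it in none of the windows of Cd300a, Cd300lb, Cd300ld, Cd300lf and Cd300c2. Cd300lf held GAGGAAGT from base 1 of the transcript, a match that contains GGAAGT, and a second GGAAGT from base -14. It also held TATAAA on the opposite strand, printed as TTTATA, from base -28. Cd300lb held TATAAA from base -30, and Cd300c2 held GGAAGT from base -25. Over the whole 300-base windows of the 32544 promoters in the table, GAGGAAGT was present in 3.11%, GGAAGT in 23.7% and TATAAA in 13.6%. The AP-1 site was present in 7.79% and the interferon element in 1.91%. The full window of Cd300ld also held GAGGAAGT, from base -143, and a further GGAAGT from base -37. That of Cd300lb held GGAAGT on the opposite strand from base -180. The full window of Cd300a held TTGCNNAA from base -214, which 10.8% of promoters hold. It also held an NF-kB site on the opposite strand from base -169, which 4.53% hold. These matches are letters in a window and were not tied to binding.

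The inhibitory receptor Cd300lf rose after LPS in both genotypes. The activating receptor Cd300lb fell in both, but it passed the filter on low counts through untreated libraries alone, so it could be tested only as a gene that was high there, and its call in knockout was lost in 8 of 19 alternatives. In CPEB1-KO-LPS against CPEB1-KO, 2 of the 4 members tested passed an adjusted p of 0.05, with Cd300lf higher and Cd300lb lower, while 6.22% of all genes tested passed (4.1% higher and 2.12% lower). In WT-LPS against WT the same 2 of 4 passed in the same directions, against 27.4% of all genes tested (12.4% higher and 14.9% lower). Adjusted p-values are those of edgeR's quasi-likelihood test with Benjamini-Hochberg adjustment over 15295 genes. Cd300a and Cd300ld did not pass in either comparison, and Cd300lg had too few reads to be tested.

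**Figure D1:**
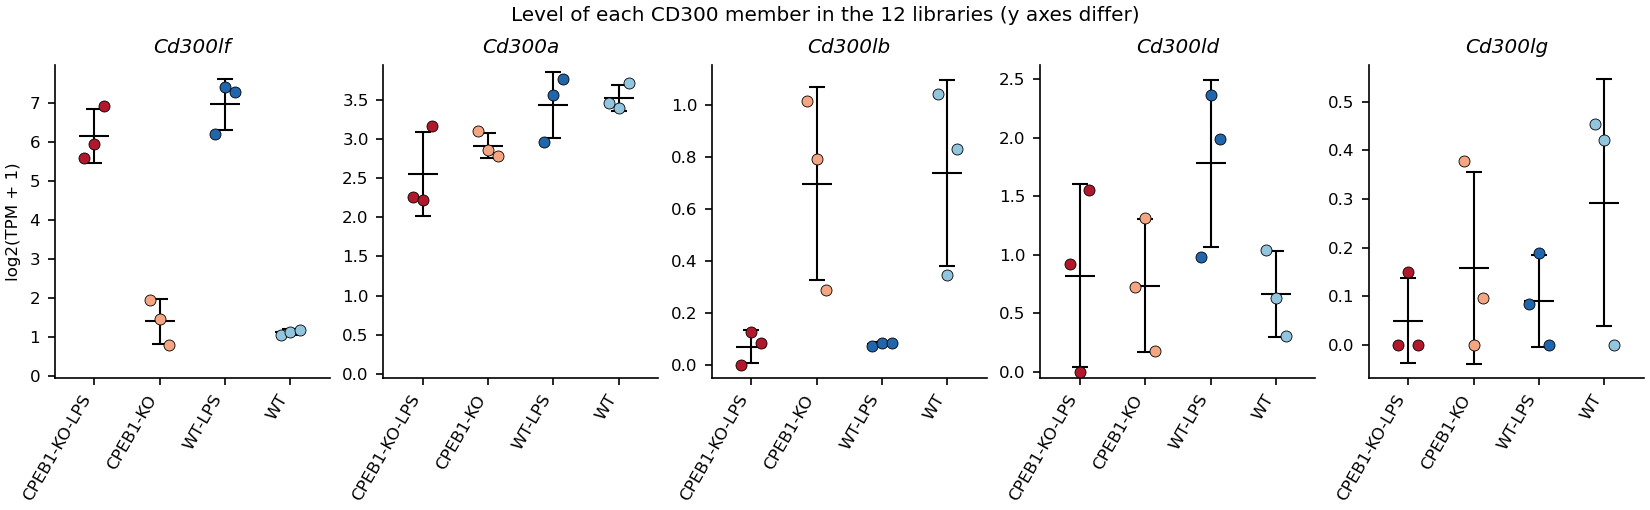
Level of each member as log2(TPM + 1) in the 12 libraries, by group. Points are libraries, the horizontal line is the mean and the bars are 1 SD (n = 3). The 6 LPS libraries lie above the 6 untreated libraries for Cd300lf and below them for Cd300lb, and overlap them for Cd300a, Cd300ld and Cd300lg.

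Cd300lf, also known as CLM-1, is an inhibitory receptor for lipids of dying cells and is also the entry receptor of murine norovirus. It had 47.3, 61.5 and 121 TPM in CPEB1-KO-LPS, against 2.83, 1.77 and 0.72 TPM in CPEB1-KO. It had 73.3, 170 and 155 TPM in WT-LPS, against 1.06, 1.19 and 1.28 TPM in WT. Every LPS library was above every untreated library, and the lowest LPS value was 47.3 TPM where the highest untreated value was 2.83 TPM. The means were 76.5 ± 39.0 TPM in CPEB1-KO-LPS, 1.77 ± 1.06 TPM in CPEB1-KO, 133 ± 52.1 TPM in WT-LPS and 1.18 ± 0.111 TPM in WT (SD, n = 3 each). Cd300lf rose by a log2 fold change of 5.55 ± 0.58 in knockout (SE, adjusted p = 0.000109) and of 6.52 ± 0.64 in wild type (adjusted p = 4.84e-05). As ratios of summed scaled counts, from 2689 reads in CPEB1-KO-LPS against 61 in CPEB1-KO and 4356 in WT-LPS against 27 in WT, these were 43.2 and 91.3. In an exact permutation test of log2(TPM + 1), two-sided and with LPS labels exchanged within genotype, its p was 0.005, the smallest that the 400 arrangements can give, and 5 members were tested in this way.

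The rise of Cd300lf passed the threshold under all 21 alternatives run in both LPS comparisons, with log2 fold changes from 4.77 to 6.06 in knockout and from 5.85 to 6.89 in wild type. When libraries were scaled to 10 pan-myeloid genes in place of all genes, the change was 5.31 ± 0.67 in knockout and 6.89 ± 0.73 in wild type. In bulk samples, fewer cells of a type and less RNA per cell cannot be told apart. Monocyte markers moved with LPS as well. Their summed level over 8 genes, all detected in every group, was 103 to 167 TPM in CPEB1-KO-LPS, 23.2 to 95.5 TPM in CPEB1-KO, 260 to 530 TPM in WT-LPS and 47.9 to 68.7 TPM in WT. In WT-LPS against WT 5 of the 8 rose and 0 fell, and in CPEB1-KO-LPS against CPEB1-KO 1 rose and 1 fell. The summed level of 11 neutrophil markers was 1308 to 4050 TPM in CPEB1-KO-LPS, 524 to 2942 TPM in CPEB1-KO, 1490 to 3178 TPM in WT-LPS and 1112 to 2740 TPM in WT, and these ranges overlapped. The part of monocytes and neutrophils in the level of Cd300lf was not tested.

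The gene Rab37, which encodes a small GTPase, spans the whole of Cd300lf on the other strand. The 2 genes overlap by 17779 bases, but their annotated exons share 0 bases. Rab37 itself had log2 fold changes of 0.40 ± 0.22 in knockout (adjusted p = 0.326) and 0.02 ± 0.22 in wild type (adjusted p = 0.951) after LPS, and its transcript averaged 24.0 ± 7.30 TPM in CPEB1-KO-LPS and 18.5 ± 0.737 TPM in CPEB1-KO (SD, n = 3 each). In WT-LPS it averaged 15.3 ± 4.35 TPM and in WT 12.6 ± 2.35 TPM.

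Cd300lb, also known as CLM-7 or LMIR5, is an activating receptor that signals with DAP12. It was a rare transcript in these libraries. It had 0, 0.09 and 0.06 TPM in CPEB1-KO-LPS, against 1.02, 0.73 and 0.22 TPM in CPEB1-KO. It had 0.05, 0.06 and 0.06 TPM in WT-LPS, against 1.06, 0.27 and 0.78 TPM in WT. All 6 LPS libraries were below all 6 untreated libraries. These levels rest on 3 reads in CPEB1-KO-LPS against 37 in CPEB1-KO, and on 3 reads in WT-LPS against 29 in WT. The ratio of scaled counts was 0.0794 in knockout (exact 95% counting interval 0.0157 to 0.251) and 0.0585 in wild type (0.0114 to 0.189), which cover counting error alone.

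Cd300lb fell after LPS in knockout (log2 fold change -3.49 ± 0.83, SE, adjusted p = 0.0259) and in wild type (-3.83 ± 0.85, adjusted p = 0.00566). The libraries that reached the filter were 2 of CPEB1-KO and 2 of WT. In the exact permutation test its p was 0.005, the smallest possible. The call in knockout did not hold without CPEB1-KO replicate 1 (-3.02, adjusted p = 0.0872) or replicate 2 (-3.43, adjusted p = 0.0891), nor without CPEB1-KO-LPS replicate 1 (-2.92, adjusted p = 0.0868), replicate 2 (-4.19, adjusted p = 0.0603) or replicate 3 (-3.66, adjusted p = 0.0548). The call in knockout was also lost with the replicate number as a block (-3.44, adjusted p = 0.0521) and with limma on log2(TPM + 1) (-0.63, adjusted p = 0.120). Scaled to pan-myeloid genes, it missed the threshold in both genotypes (-3.59, adjusted p = 0.137 in knockout and -3.47, adjusted p = 0.0800 in wild type).

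**Figure D2:**
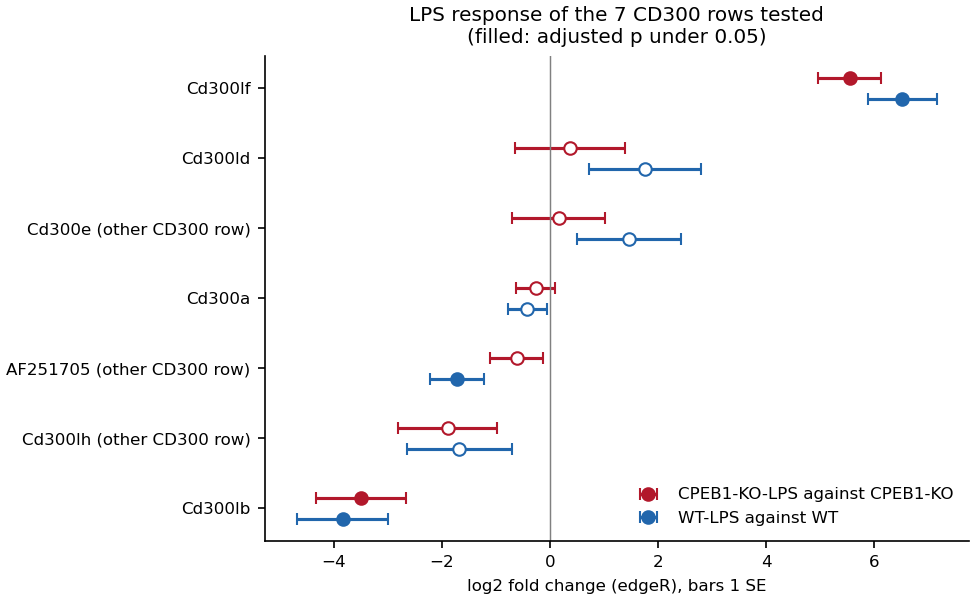
Log2 fold change after LPS with bars of 1 SE (edgeR, 4 groups of 3 libraries) for the 7 CD300 genes tested, with the knockout comparison above the wild-type one. Filled points passed an adjusted p of 0.05: Cd300lf and Cd300lb in both genotypes and AF251705 in wild type.

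Cd300a, also known as CLM-8 or MAIR-I, is the other member with inhibitory motifs. It had 3.8, 3.68 and 7.98 TPM in CPEB1-KO-LPS and 7.56, 6.28 and 5.91 TPM in CPEB1-KO. It had 6.79, 10.8 and 12.7 TPM in WT-LPS and 10, 9.57 and 12.1 TPM in WT. In each genotype the LPS libraries overlapped the untreated ones. Its log2 fold changes after LPS were -0.26 ± 0.36 in knockout (adjusted p = 0.740) and -0.42 ± 0.36 in wild type (adjusted p = 0.404), and the wild-type comparison gave 0.09 ± 0.55 when scaled to pan-myeloid genes. Among the 5 members it ranked first by TPM in the untreated groups, with means of 6.58 ± 0.866 TPM in CPEB1-KO and 10.6 ± 1.37 TPM in WT (SD, n = 3 each). Cd300lf ranked first in the LPS groups.

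Cd300ld, also known as CLM-5 or MAIR-IV, signals with the Fc receptor gamma chain. It had 0.89, 0 and 1.93 TPM in CPEB1-KO-LPS and 0.65, 1.48 and 0.13 TPM in CPEB1-KO. It had 0.98, 4.15 and 2.98 TPM in WT-LPS and 1.06, 0.55 and 0.24 TPM in WT. WT-LPS replicates 2 and 3 were the only libraries above 1.93 TPM, and WT-LPS replicate 1 lay within the range of WT. The log2 fold change after LPS was 0.37 ± 1.02 in knockout (adjusted p = 0.879) and 1.75 ± 1.04 in wild type (adjusted p = 0.221).

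Cd300lg, the endothelial member, was near the limit of detection. Its 12 libraries held 18 reads in all: 2 in CPEB1-KO-LPS, 5 in CPEB1-KO, 3 in WT-LPS and 8 in WT. The highest level was 0.37 TPM, in WT. It did not pass the filter on low counts, which no library reached. With no filter, its log2 fold change after LPS was -1.29 ± 1.47 in knockout (adjusted p = 0.694, where 4.96% of genes passed) and -1.97 ± 1.33 in wild type (adjusted p = 0.316, where 21.2% passed). All 12 endothelial and mural markers were detected in every group, with a summed level of 56.0 to 68.8 TPM in CPEB1-KO-LPS, 54.2 to 92.7 TPM in CPEB1-KO, 101 to 268 TPM in WT-LPS and 40.2 to 60.1 TPM in WT.

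Ordered by mean level, Cd300lf ran WT-LPS, CPEB1-KO-LPS, CPEB1-KO, WT from high to low, and only the step between CPEB1-KO-LPS and CPEB1-KO separated groups whose libraries did not overlap. For Cd300lb the order was WT, CPEB1-KO, WT-LPS, CPEB1-KO-LPS, with the only gap between CPEB1-KO and WT-LPS. For Cd300a, Cd300ld and Cd300lg every pair of neighbouring groups overlapped.

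The other CD300 genes of the cluster differed in level and in response. AF251705 was the most abundant CD300 transcript of untreated libraries. It had 29.0, 18.7 and 60.7 TPM in CPEB1-KO-LPS, against 75.9, 53.9 and 50.5 TPM in CPEB1-KO, groups that overlapped. It had 18.3, 57.1 and 46.2 TPM in WT-LPS, against 94.0, 112 and 106 TPM in WT, groups that did not overlap. AF251705 fell after LPS in wild type (log2 fold change -1.71 ± 0.50, adjusted p = 0.0226) and changed by -0.61 ± 0.49 in knockout (adjusted p = 0.526). The difference between these responses was 1.10 ± 0.69 and did not pass (adjusted p = 0.461). The wild-type call did not hold without WT replicate 2 (-1.47, adjusted p = 0.0807), WT replicate 3 (-1.74, adjusted p = 0.0506), WT-LPS replicate 1 (-1.29, adjusted p = 0.0757) or WT-LPS replicate 3 (-1.75, adjusted p = 0.0662), nor when scaled to pan-myeloid genes (-1.37, adjusted p = 0.178).

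Cd300e and Cd300lh did not pass after LPS in either genotype. Cd300e had means of 1.30 ± 1.09 TPM in CPEB1-KO-LPS, 1.21 ± 1.40 TPM in CPEB1-KO, 1.97 ± 0.873 TPM in WT-LPS and 0.523 ± 0.434 TPM in WT (SD, n = 3 each). Cd300lh, which RefSeq calls Cd300ld3, had 15 reads in CPEB1-KO-LPS, 59 in CPEB1-KO, 14 in WT-LPS and 26 in WT. Gm11710, which RefSeq calls Cd300ld4, had 0 reads in CPEB1-KO-LPS, 34 in CPEB1-KO, 12 in WT-LPS and 0 in WT. For Cd300lh and Gm11710, 3 of 12 expected counts each were not whole numbers, which is how reads shared between genes appear, so their values are uncertain. Cd300c was listed at 0 in all 12 libraries.

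Which CD300 gene held the largest share of CD300 transcripts differed between LPS and untreated libraries. Of the summed TPM of the 10 CD300 genes in the tables, Cd300lf held 63.6 ± 8.11% in CPEB1-KO-LPS and 2.11 ± 0.917% in CPEB1-KO. It held 70.1 ± 1.75% in WT-LPS and 0.968 ± 0.0666% in WT (SD, n = 3 each). AF251705 held 29.2 ± 6.52% in CPEB1-KO-LPS and 75.2 ± 3.48% in CPEB1-KO, and it held 20.6 ± 2.52% in WT-LPS and 85.6 ± 1.89% in WT. Neither gene's shares overlapped between LPS and untreated libraries of the same genotype. Cd300a held 4.32 ± 0.251% in CPEB1-KO-LPS, 8.34 ± 0.647% in CPEB1-KO, 5.57 ± 1.16% in WT-LPS and 8.72 ± 1.25% in WT. Shares within a library sum to a fixed total, so the fall in the shares of AF251705 and Cd300a does not by itself show a lower level.

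**Figure D3:**
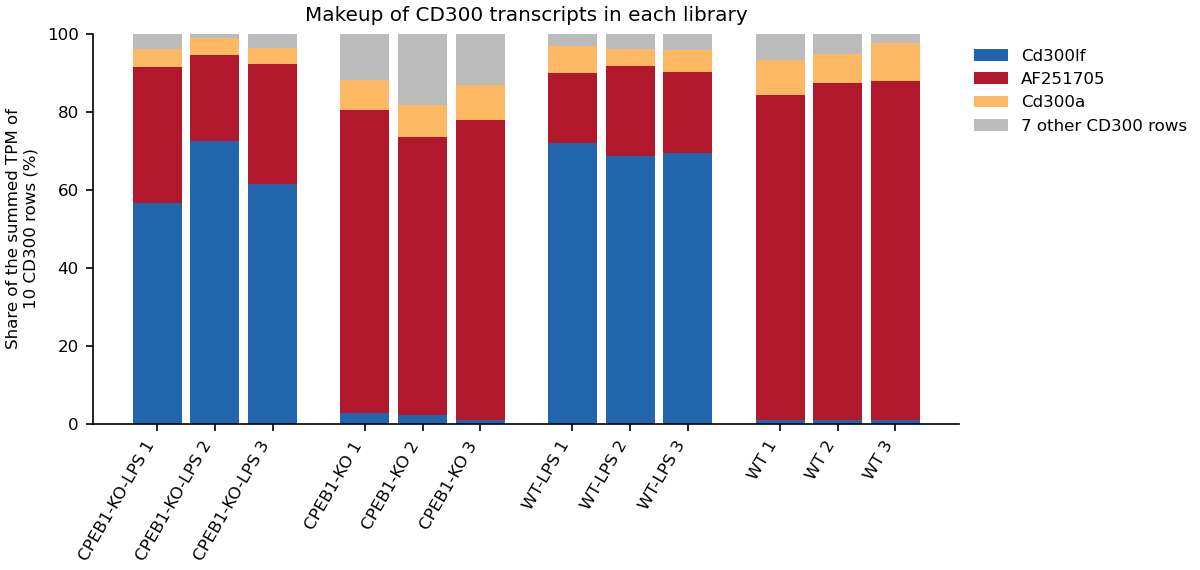
Share of each library's summed CD300 TPM held by Cd300lf, AF251705, Cd300a and the other 7 CD300 genes, in percent, for the 3 libraries of each group. Cd300lf holds 56.7% to 72.5% in the 6 LPS libraries and at most 2.89% in the 6 untreated libraries.

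Between genotypes, 0 members passed in any comparison. In CPEB1-KO against WT, 0 of 4 passed, where 0.0327% of all genes tested did. In CPEB1-KO-LPS against WT-LPS, 0 of 4 passed, where 0.00654% of all genes did. For the LPS response in CPEB1-KO minus that in WT it was 0 of 4 again, where 0.00654% of genes passed, and for the genotypes averaged over both treatments 0 of 4, where 0.124% passed. At an unadjusted p under 0.05 the counts were 1, 1, 0 and 1, and DESeq2 called 0 members in each of the 4. Of all 15295 genes tested, 2844, 1653, 2365 and 2042 had an unadjusted p under 0.05, in the same order. Whether the member counts exceed this background was not tested.

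The member behind each of these counts of 1 was Cd300a. CPEB1-KO, at 5.91 to 7.56 TPM, did not overlap WT, at 9.57 to 12.1 TPM. The log2 fold change was -1.01 ± 0.37 untreated (adjusted p = 0.200) and -0.85 ± 0.36 with LPS (adjusted p = 0.441). Averaged over treatments it was -0.93 ± 0.26 over 6 libraries per genotype (adjusted p = 0.301). Without CPEB1-KO-LPS replicate 3, the highest CPEB1-KO-LPS library at 7.98 TPM, the averaged difference passed (-1.24, adjusted p = 0.0173). That fit was 1 of 20 alternatives, and the averaged difference did not pass in the other 19.

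Between the untreated genotypes, summed levels of myeloid and of neuronal transcripts did not overlap either, although 0 of the 10 genes of each list passed. The 10 pan-myeloid genes summed to 2139 to 3528 TPM in CPEB1-KO and 3854 to 5984 TPM in WT, and 10 neuron markers to 3361 to 4765 TPM in CPEB1-KO and 1164 to 3314 TPM in WT. Per 1000 TPM of the pan-myeloid genes, a ratio computed after the levels had been seen, Cd300a had 2.14 to 2.76 TPM in CPEB1-KO and 1.60 to 2.59 TPM in WT, and these overlapped. Scaled to the same genes, its log2 fold change was 0.18 ± 0.55 (adjusted p = 0.785), the opposite sign to the one above. The same scaling moved the median of all genes by 1.19 in CPEB1-KO against WT. With LPS the pan-myeloid sums overlapped, at 2229 to 4979 TPM in CPEB1-KO-LPS and 1832 to 6824 TPM in WT-LPS. Neuron markers overlapped there too, at 2180 to 4101 TPM and 1878 to 5343 TPM. The change of Cd300a stayed negative under all alternatives with LPS (at most -0.50) and averaged over treatments (at most -0.16). The part of myeloid content in the level of Cd300a was not tested.

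**Figure D4:**
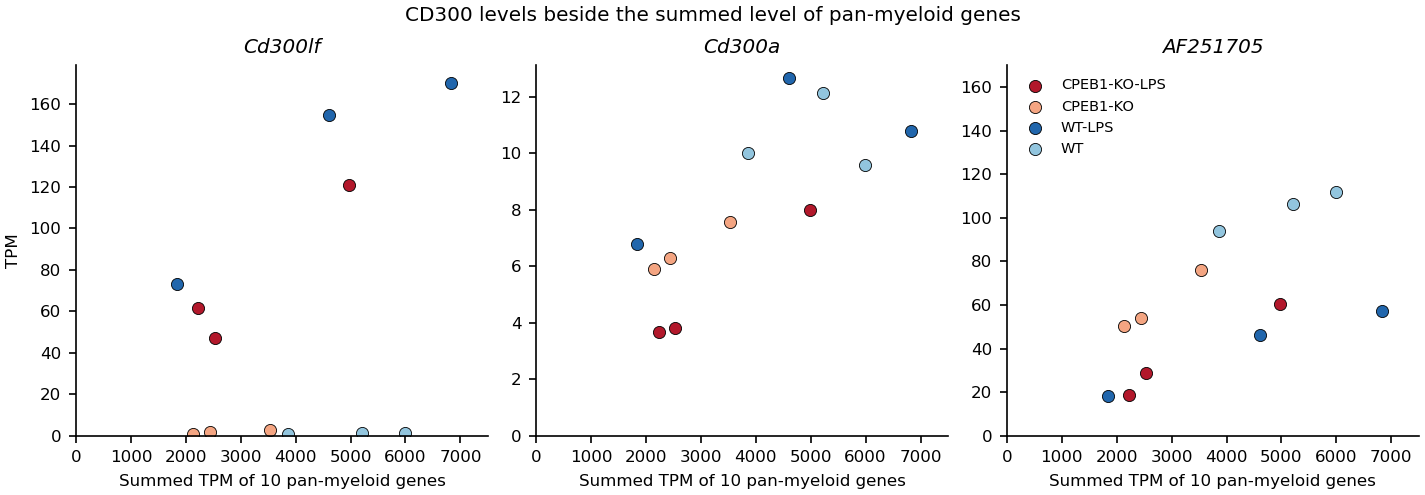
TPM of Cd300lf, Cd300a and AF251705 against the summed TPM of 10 pan-myeloid genes, 1 point per library, coloured by group. LPS libraries of Cd300lf lie above 47 TPM at any pan-myeloid level, and Cd300a is lowest, at 3.68 and 3.8 TPM, in CPEB1-KO-LPS libraries with pan-myeloid sums of 2229 and 2526 TPM, while at the 2 lowest sums, 2139 and 1832 TPM, it is 5.91 TPM in CPEB1-KO and 6.79 TPM in WT-LPS.

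Cd300lf and Cd300lb showed no genotype difference past the threshold. For Cd300lf the log2 fold change was 0.30 ± 0.68 untreated (adjusted p = 0.836) and -0.68 ± 0.46 with LPS (adjusted p = 0.583), where CPEB1-KO-LPS and WT-LPS overlapped. The LPS response of Cd300lf in CPEB1-KO minus that in WT was -0.97 ± 0.82 (adjusted p = 0.588). For Cd300lb the corresponding difference in response was 0.34 ± 1.47 (adjusted p = 0.931). For Cd300ld it was -1.38 ± 1.46 (adjusted p = 0.668), an SE that is as wide as the value.

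The per-1000 ratio was also taken for the other abundant genes. Cd300lf had 18.7 to 27.6 TPM per 1000 pan-myeloid TPM in CPEB1-KO-LPS against 0.337 to 0.802 in CPEB1-KO, and 24.9 to 40.0 in WT-LPS against 0.199 to 0.275 in WT. AF251705 had 8.38 to 12.2 in CPEB1-KO-LPS against 21.5 to 23.6 in CPEB1-KO, and 8.37 to 10.04 in WT-LPS against 18.7 to 24.4 in WT. On this scale LPS and untreated libraries of AF251705 did not overlap in either genotype, while their TPM overlapped in knockout. In the fit scaled to pan-myeloid genes the knockout change was -1.01 ± 0.53 and did not pass (adjusted p = 0.983).

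Genes next to the cluster changed by smaller amounts than Cd300lf and Cd300lb, between -2.01 and 1.25 on the log2 scale. Of the 3 nearest tested genes on the left, Kif19a, Btbd17 and Gprc5c, Btbd17 fell after LPS in knockout (-1.44 ± 0.38, adjusted p = 0.0387), and this call was lost without WT replicate 2 or any of 5 of the 6 knockout libraries, at log2 fold changes from -1.47 to -1.18. Of the 3 on the right, Slc9a3r1, Nat9 and Tmem104, in wild type Nat9 fell (-2.01 ± 0.31, adjusted p = 0.000822) and Tmem104 rose (1.25 ± 0.39, adjusted p = 0.0291). Nat9 and Tmem104 overlap at their ends, so reads there cannot be told apart without strand. The call of Tmem104 was lost without any of the 3 WT libraries or without WT-LPS replicate 2 or 3, at log2 fold changes from 0.83 to 1.39. Under pan-myeloid scaling the calls of Nat9 (-1.24, adjusted p = 0.310), Tmem104 (1.57, adjusted p = 0.125) and Btbd17 (-1.83, adjusted p = 0.247) were lost.

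**Figure D5:**
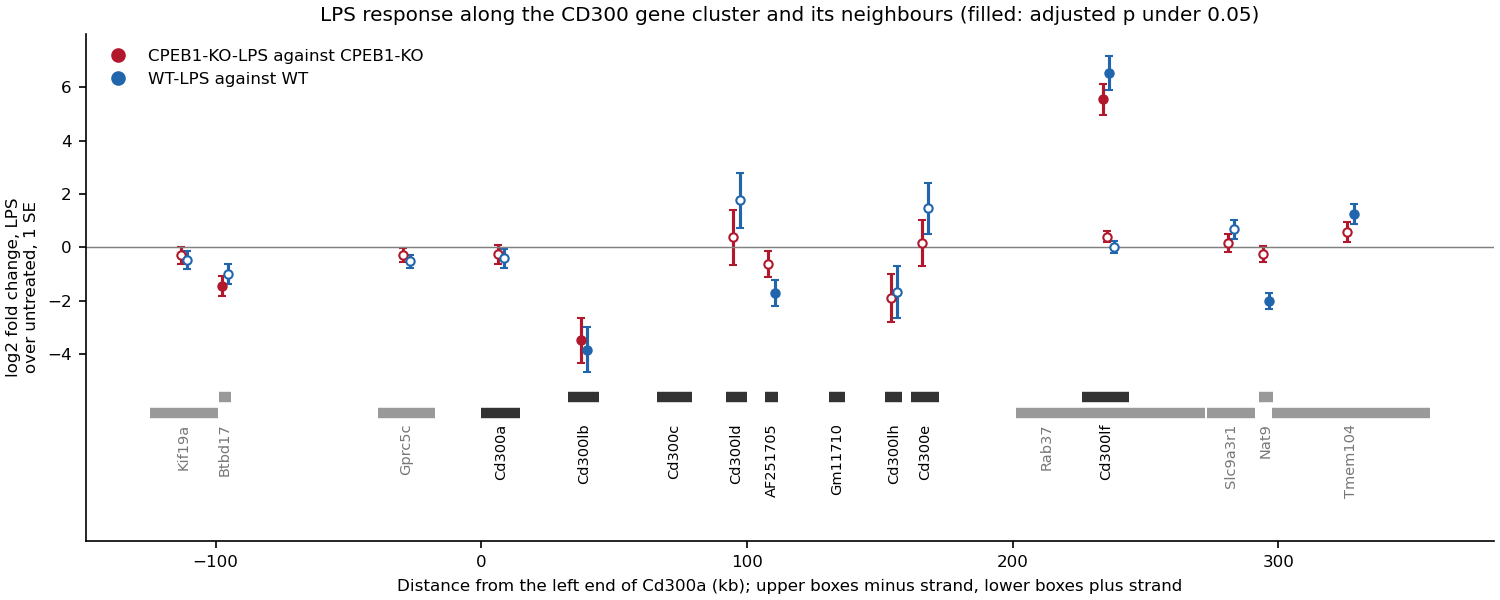
Log2 fold change after LPS with bars of 1 SE along the CD300 cluster, with position as the distance in kb from the left end of Cd300a. Black boxes are CD300 genes and grey boxes their neighbours, and filled points passed an adjusted p of 0.05. Cd300lf, at 5.55 in knockout and 6.52 in wild type, lies within Rab37, which stays near 0.

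Among genes outside the family, those closest to Cd300lf over the 12 libraries were Tnfaip3, Il1rn and Gbp2. The measure was the root-mean-square difference of log2(TPM + 1), each gene centred on its own mean, among 13921 genes, and it was 0.406, 0.453 and 0.464 for these 3. The range of Cd300lf itself was 6.64 on this scale. For Cd300a the closest were Dusp6, Prex1 and Tnfrsf23, at 0.196 to 0.203, beside a range of 1.55. For Cd300ld they were Stt3a, Rassf5 and Slc16a3, at 0.317 to 0.323, beside a range of 2.36. All points share the same libraries and their myeloid content, and Cd300lb and Cd300lg were too low for this measure.

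The adaptors of CD300 receptors, Tyrobp and Fcer1g, averaged higher levels than any CD300 gene in each group. The adaptor Tyrobp averaged 937 ± 385 TPM in CPEB1-KO-LPS, 1159 ± 331 TPM in CPEB1-KO, 1089 ± 687 TPM in WT-LPS and 2154 ± 663 TPM in WT (SD, n = 3 each). Fcer1g averaged 947 ± 437 TPM in CPEB1-KO-LPS, 465 ± 122 TPM in CPEB1-KO, 1336 ± 806 TPM in WT-LPS and 919 ± 193 TPM in WT. Neither passed after LPS. Tyrobp changed by -0.16 ± 0.53 in knockout (adjusted p = 0.901) and -1.35 ± 0.54 in wild type (adjusted p = 0.0786), and Fcer1g by 1.17 ± 0.52 (adjusted p = 0.219) and 0.18 ± 0.51 (adjusted p = 0.815). The wild-type change of Tyrobp passed without WT replicate 1 (-1.63, adjusted p = 0.0479) or WT-LPS replicate 2 (-1.99, adjusted p = 0.0314).

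Of 16 signalling partners, 2 rose and 0 fell in CPEB1-KO-LPS against CPEB1-KO, and 2 rose and 1 fell in WT-LPS against WT. Among all genes tested, 4.1% rose and 2.12% fell in knockout, and 12.4% rose and 14.9% fell in wild type. The count that rose in wild type is near that share. Their median log2 fold changes were 0.53 and 0.37, beside 0.00 and -0.03 over all genes tested. Fgr, a Src-family kinase of the kind that phosphorylates receptor tails, rose in both genotypes, by 3.22 ± 0.46 in knockout and 3.81 ± 0.48 in wild type. Csk, a kinase that restrains the Src family, fell in wild type (adjusted p = 0.0125), a call lost without WT replicate 2 (-0.82) or WT-LPS replicate 1 (-0.77) and under pan-myeloid scaling (-0.40, adjusted p = 0.686).

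Among the phosphatases that inhibitory receptors recruit, Ptpn6 and Inpp5d did not pass, and Ptpn11 passed in wild type under 7 of 21 alternatives. Ptpn6 had log2 fold changes of 0.76 ± 0.39 in knockout and 0.24 ± 0.39 in wild type, and the lipid phosphatase Inpp5d had -0.34 ± 0.51 and -0.66 ± 0.51. Ptpn11 had 0.38 ± 0.27 in knockout and 0.76 ± 0.27 in wild type, where its adjusted p was 0.0528. Ptpn11 passed in wild type with WT replicate 2 left out (1.16), and likewise with WT-LPS replicate 1 (0.89) or CPEB1-KO-LPS replicate 3 (0.76) left out. It also passed with DESeq2 (0.79, adjusted p = 0.0234), with no filter (0.83, adjusted p = 0.0452) and with limma (1.15, adjusted p = 0.00274, and 1.16, adjusted p = 0.00290).

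Of 14 other receptors and bridging proteins for lipids and dying cells that were tested, 0 rose and 1 fell in knockout after LPS, and 0 rose and 4 fell in wild type. The shares over all genes tested were 4.1% higher and 2.12% lower in knockout, and 12.4% higher and 14.9% lower in wild type. Mfge8, a bridging protein for phosphatidylserine, fell in knockout (-1.28 ± 0.29, adjusted p = 0.0180). In wild type Trem2, a lipid receptor of microglia that signals with DAP12, fell by 2.71 ± 0.73 on the log2 scale. The call of Trem2 was lost without WT replicate 2, WT-LPS replicate 1 or WT-LPS replicate 3, at adjusted p of 0.0543 to 0.0544, and in knockout Trem2 passed without CPEB1-KO-LPS replicate 3 (-2.97, adjusted p = 0.0154). Cd36, a scavenger receptor, fell by 1.57 ± 0.36, a call lost under pan-myeloid scaling (-0.95, adjusted p = 0.467). Tyro3, a receptor kinase, fell by 1.01 ± 0.27 and lost its call without WT replicate 3 (-0.66) or WT-LPS replicate 3 (-0.99), in the fit of 2 groups (-0.98), with limma (-0.58 and -0.59) and under pan-myeloid scaling (-0.31, adjusted p = 0.803). Gas6, the ligand that bridges phosphatidylserine to Tyro3, had -0.58 ± 0.18 (adjusted p = 0.0311) and lost its call without any of 9 libraries, at values between -0.50 and -0.63, and also with no filter (-0.51), in the fit of 2 groups (-0.55), with limma (-0.22 and -0.23) and under pan-myeloid scaling (0.17). The medians of the 14 were -0.33 in knockout and -0.42 in wild type.

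Of 25 other paired receptors of myeloid cells, 13 rose and 0 fell in knockout, and 14 rose and 2 fell in wild type. Over all genes tested, 4.1% rose and 2.12% fell in knockout, and 12.4% rose and 14.9% fell in wild type. The medians were 2.13 and 1.87 on the log2 scale. Clec4a1, a C-type lectin, rose by 4.53 ± 0.50 in knockout and 5.07 ± 0.51 in wild type. Trem1, an activating receptor that signals with DAP12, rose by 4.83 ± 0.73 and 7.92 ± 0.94. Siglec1, a sialic acid receptor, rose by 3.54 ± 0.59 and 5.08 ± 0.66. Untreated reads were few, at 25 in CPEB1-KO and 4 in WT for Trem1, and 58 and 25 for Siglec1. Over the alternatives the smallest rises were 3.12 in knockout and 4.67 in wild type for Trem1, and 2.03 and 3.01 for Siglec1. Clec4e, a lectin that signals with the Fc receptor gamma chain, averaged 7.72 ± 0.735 TPM in CPEB1-KO-LPS, 0.370 ± 0.190 TPM in CPEB1-KO, 9.38 ± 1.15 TPM in WT-LPS and 0.107 ± 0.105 TPM in WT (SD, n = 3 each). Too few untreated libraries reached the filter on low counts for Trem1 and Clec4e. Both could be tested only as genes that were high with LPS, and both are among the 13 and 14 that rose. The 2 receptors that fell in wild type were Sirpa (-1.15 ± 0.22) and Cd200r1 (-1.92 ± 0.40), and like Mfge8 they were not recomputed under the alternatives. The list was not split into inhibitory and activating receptors.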

How the data were processed

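Poly(A) libraries were built from total RNA, per the labels. The expected counts per gene, not normalised between libraries, and the TPM values were computed by the authors, and both tables were deposited. Cutadapt, RSEM and mm10 are named in the submitters' processing notes. Versions, the aligner, the annotation, strandedness and filters were not given in the sources used here.

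Expected counts were rounded and tested with edgeR 4.0.16 in R 4.3.3: filterByExpr by group, which kept 15295 genes, TMM scaling, quasi-likelihood fits with 4 group means, 8 residual degrees of freedom and a biological coefficient of variation of 0.282. Tests were two-sided, with Benjamini-Hochberg adjusted p at 0.05 over all genes. Standard errors were the change divided by the root of F. Exact permutation tests used scipy 1.17.1.

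Alternatives were median-of-ratios (RLE) scaling, scaling to 10 pan-myeloid genes, DESeq2 1.42.0, no filter, a filter of 10 counts in 6 libraries, limma 3.58.1 on log2(TPM + 1) and log2(TPM + 0.1), the replicate number as a block, fits of the 2 groups compared, and leaving out each of 12 libraries.

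Members and the 19 gene lists were chosen with earlier results of these data known. Named genes were all CD300 genes, Tyrobp, Fcer1g, Ptpn6, Inpp5d, the 4 genes of smallest p in WT-LPS against WT from each of 3 lists, 3 neighbours on each side, Rab37 and 3 genes of most similar pattern per member. Of these, 1 gene is not reported here. Mfge8, Sirpa and Cd200r1 were named after their values were seen. Positions are from GENCODE M21 and promoters from RefSeq. The NF-kB and interferon element forms were changed after matches to earlier forms had been seen, and the earlier NF-kB form had matched in the Cd300lb window. Counting intervals take in counting error alone, and reads carried no molecular identifiers.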

Additional observations from a re-analysis of the deposited data

How the results depend on the processing

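The rise of Cd300lf kept its direction and its call in both LPS comparisons under all 21 alternatives. The 2 members called in each LPS comparison became 1 under pan-myeloid scaling, under the stricter filter and in fits of only the 2 groups compared, since Cd300lb was not tested in the last 2. In knockout the count was also 1 with limma on log2(TPM + 1), where Cd300lb had -0.63 (adjusted p = 0.120), and between 1 and 2 over the 12 fits that leave out a library. It was always 2 over those fits in wild type, and 0 to 1 for the averaged genotypes. Over all pairs of groups, replicate numbers did not line up the libraries. Residuals of libraries with the same number correlated between -0.34 and 0.38, over 0.1 in 5 of 18 pairs. Of 12 libraries, 3 correlated best with their own number. Between WT and WT-LPS, pairs of the same number had 0.38, 0.15 and 0.18, and pairs of unlike number -0.32 to 0.14. Whether the numbers pair libraries in wild type is thus not settled. With the replicate block, Cd300lb in knockout had -3.44 (adjusted p = 0.0521), so that 1 member was called, and no other member call changed.

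Signs that turned were all of changes past no threshold, except that of Gas6 in wild type. Under pan-myeloid scaling, log2 fold changes after LPS were 0.090 for Cd300a and 0.17 for Gas6 in wild type, and -0.18 for Cd300ld, -0.36 for Cd300e and -0.038 for Gas6 in knockout. For CPEB1-KO against WT they were 0.18 for Cd300a, 0.58 for Cd300lb and 1.05 for Cd300ld, and for CPEB1-KO-LPS against WT-LPS 0.46 for Cd300lb. The difference in response was -0.68 for Cd300a and -0.12 for Cd300lb, and the averaged genotypes differed by 0.52 for Cd300lb and 0.56 for Cd300lf. With limma on log2(TPM + 1) and log2(TPM + 0.1), Cd300ld had 0.075 and 0.029 in CPEB1-KO against WT, Cd300a -0.27 and -0.33 in the difference in response, and Gas6 -0.0037 and -0.0037 in knockout after LPS. Cd300ld had -0.15 in knockout with the smaller pseudocount. The cause was not tested.

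Leaving out 1 library also turned signs of changes past no threshold, given as the lowest and highest values of the 12 fits. After LPS in wild type these were -0.43 to 0.64 for Fcer1g, -0.19 to 0.61 for Ptpn6 and -0.12 to 0.15 for Rab37. After LPS in knockout they were -0.87 to 1.32 for Cd300ld, -0.78 to 1.73 for Cd300e, -0.75 to 0.14 for Tyrobp and -0.039 to 0.13 for Gas6. For CPEB1-KO against WT they were -0.87 to 0.013 for Cd300lb, -0.99 to 0.495 for Cd300ld and -0.21 to 0.67 for Cd300lf, and for CPEB1-KO-LPS against WT-LPS -0.80 to 0.47 for Cd300lb. For the difference in response they were -0.47 to 0.36 for Cd300a and -0.398 to 0.87 for Cd300lb, and for the averaged genotypes -0.597 to 0.038 for Cd300lb.

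Counts over all genes moved by more than 1.5 times. In WT-LPS against WT 4185 genes passed, 581 under pan-myeloid scaling, 2592 in the fit of 2 groups and 2714 to 4724 with a library left out. In knockout after LPS 952 passed, 225 under pan-myeloid scaling, 1621 with DESeq2 and 355 to 1132 with a library left out. In CPEB1-KO against WT 5 passed, 492 with DESeq2 and 1292 without WT replicate 1, and for the averaged genotypes 19, 137 with DESeq2 and 150 without CPEB1-KO-LPS replicate 3. In CPEB1-KO-LPS against WT-LPS 1 passed, and 80 with DESeq2. For the difference in response 1 passed, 281 with DESeq2 and 441 without WT replicate 1. The share of called genes that were higher in WT-LPS was 45.4%, against 82.1% under pan-myeloid scaling and 75.7% with limma, and these moved the median of all genes by 0.70 and 0.34. In knockout it was 65.9%, against 81.3% under pan-myeloid scaling. Cd300lb and Cd300lg rest on few reads, and changes of their size are poorly resolved at this depth.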
